A study of Mus musculus with 18 samples.

Results

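The genes described here are those of TREM2, TYROBP and Fc receptor signalling, followed in magnetically separated brain cells of *Atxn2*-CAG100-knock-in mice. The set is a list of 10 gene symbols, namely *Trem2*, *Tyrobp*, *Fcer1g*, *Syk*, *Plcg2*, *Inpp5d*, *Fcgr1*, *Fcgr2b*, *Fcgr3* and *Cd33*. All 10 were found among the 35960 symbols of the count table, where they hold 46 of 116873 transcripts, and the reads of a symbol's transcripts were summed. The mice were homozygous for an expanded CAG repeat knocked into *Atxn2* (KIN) or wild-type (WT) littermates on a C57BL/6 background, all aged 10 months. Each KIN mouse was matched to a WT mouse of its sex, and both sexes were used within each genotype, without sex as a term in the fits. Each brain was passed through magnetic columns in sequence, so that microglia were taken first with beads against CD11b. Astrocytes were then taken with beads against ACSA-2 after an Fc receptor blocking reagent, and the cells left after depletion of other cell types, CD31-positive cells included, formed the neuronal fraction. There were 18 libraries, which is 3 for each genotype in each of the 3 fractions, called replicates 1, 2 and 3 below.

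TREM2 is a receptor of the microglial surface that binds lipids, apolipoproteins and cell debris. It has no signalling tail of its own and relies on the adaptor TYROBP (DAP12), whose ITAM motif is phosphorylated and then docks the kinase SYK, which in turn activates the phospholipase PLCG2. FCER1G, the Fc receptor common gamma chain, is the sister adaptor that does the same for the activating immunoglobulin G receptors FCGR1 and FCGR3. Signals of both adaptors are held back by FCGR2B, the Fc receptor that carries an inhibitory ITIM motif. The lipid phosphatase SHIP1, the product of *Inpp5d*, holds them back as well. The lectin CD33, known as inhibitory from human cells, is grouped here with these inhibitors. In the brain this machinery is known from microglia, where it takes part in phagocytosis and in the change to a disease-associated state.

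The genes lie on 6 chromosomes of the mouse genome build GRCm39, by the GENCODE M39 annotation. *Trem2* is at chr17:48653429-48661175, *Tyrobp* at chr7:30113170-30117010, *Cd33* at chr7:43173634-43193875, *Syk* at chr13:52736696-52802828, *Plcg2* at chr8:118224988-118361881 and *Fcgr1* at chr3:96190225-96201338. The other 4 share chromosome 1: *Inpp5d* at chr1:87547989-87648230, *Fcgr2b* at chr1:170786186-170804177, *Fcgr3* at chr1:170878738-170893549 and *Fcer1g* at chr1:171057141-171062219. Reads were counted without regard to strand. Annotated genes on the opposite strand overlap *Trem2*, *Plcg2*, *Inpp5d*, *Fcgr2b* and *Cd33*, and on the same strand *Gm71631* spans all of *Fcer1g*, *Gm70278* lies in *Inpp5d* and *Mir6546* in *Fcgr3*. Reads of these neighbours and of the 10 genes may not be told apart where they overlap.

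Promoter windows are shown because the genes, by the levels given below, were read mainly in the microglial fraction, with *Fcgr2b* the least so. Each runs from 250 bases before the annotated start to 50 bases after it, as given by RefSeq for build GRCm38.p6, an older build than that of the counts. Capitals mark the letters GAGGAA, the core of the box read by the myeloid transcription factor PU.1, or their reverse complement TTCCTC, both strands being searched.
Trem2, chr17:48346151-48346450, strand +: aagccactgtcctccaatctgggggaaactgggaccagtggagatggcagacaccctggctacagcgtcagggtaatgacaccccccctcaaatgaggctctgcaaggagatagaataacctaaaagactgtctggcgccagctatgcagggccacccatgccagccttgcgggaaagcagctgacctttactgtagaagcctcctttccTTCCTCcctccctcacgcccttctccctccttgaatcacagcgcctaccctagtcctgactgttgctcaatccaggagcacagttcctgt
Inpp5d, chr1:87620062-87620361, strand +: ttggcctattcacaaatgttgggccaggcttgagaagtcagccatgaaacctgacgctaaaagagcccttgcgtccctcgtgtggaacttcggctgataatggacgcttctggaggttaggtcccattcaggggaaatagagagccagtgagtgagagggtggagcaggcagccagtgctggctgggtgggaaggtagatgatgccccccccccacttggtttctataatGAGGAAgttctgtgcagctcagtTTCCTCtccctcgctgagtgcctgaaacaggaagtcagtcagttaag
Fcgr3, chr1:171059345-171059644, strand minus: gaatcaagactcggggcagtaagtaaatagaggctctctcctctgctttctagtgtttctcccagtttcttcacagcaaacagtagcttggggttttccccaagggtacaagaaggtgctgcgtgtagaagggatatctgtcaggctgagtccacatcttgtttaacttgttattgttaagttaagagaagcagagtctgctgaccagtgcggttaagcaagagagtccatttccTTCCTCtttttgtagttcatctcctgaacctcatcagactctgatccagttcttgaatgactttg
Fcgr2b, chr1:170976022-170976321, strand minus: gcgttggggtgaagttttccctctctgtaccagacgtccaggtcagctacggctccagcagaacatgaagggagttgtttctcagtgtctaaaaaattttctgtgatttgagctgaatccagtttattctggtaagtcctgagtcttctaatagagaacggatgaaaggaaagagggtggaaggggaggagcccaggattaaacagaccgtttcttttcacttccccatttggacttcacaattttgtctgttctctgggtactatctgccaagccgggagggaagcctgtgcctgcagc
The letters were found in 28.3% of all 32851 windows in the RefSeq table. Of the 11 windows listed for 9 of the 10 genes, 7 held them, and these belonged to *Trem2*, *Syk*, *Inpp5d*, *Fcgr1*, *Fcgr3* and *Cd33*. The windows of *Fcgr2b*, *Fcer1g* and *Plcg2* did not hold them, so that a match did not separate *Fcgr2b* from the other genes. A match of 6 letters is a description of the window and was not tested as a binding site.

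Library depth differed between fractions. The microglia libraries held 2334633 to 3296398 reads, the astrocyte libraries 2118317 to 2829969 and the neuron libraries 761481 to 2017932. Levels are given as raw reads or as counts-per-million (CPM), the reads of a gene relative to its library's TMM-scaled total. A gene with no more than 3 reads in a library was taken as at the floor, which is 0.89 to 1.48 CPM in microglia, 0.863 to 1.53 CPM in astrocytes and 1.92 to 3.99 CPM in neurons. Intervals and floors cover counting error only. One library stood apart: microglia WT replicate 2 had a scaling factor of 0.613 against 0.861 to 1.19 in the other 5 microglia libraries, and 15234 genes with a read against 16476 to 17437. The genotype comparison of the 10 genes in microglia is therefore also given without it. The 7 microglia markers used (*Aif1*, *C1qa*, *Csf1r*, *Cx3cr1*, *P2ry12*, *Sall1* and *Tmem119*) summed to 657, 1002 and 658 CPM in WT replicates 1, 2 and 3 and to 932, 859 and 885 CPM in KIN. WT replicates 1 and 3 thus lay below every KIN library and WT replicate 2 above. The same fraction held *S100a8* and *S100a9*, known from neutrophils and monocytes, at means of 33.0 and 20.9 CPM, while both were at or below the floor in the other fractions.

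The fractions were compared first, over both genotypes. The receptor, its adaptor, the shared gamma chain and the activating Fc receptors were read almost entirely in the microglial fraction, whereas *Fcgr2b*, the inhibitory Fc receptor, was also read in astrocytes and neurons. *Trem2* had 174 to 394 reads in the 6 microglia libraries, with a median of 322, and 0 to 2 reads in every astrocyte and neuron library. *Tyrobp* had 73 to 433 reads in microglia, median 217.5, against 0 to 2 in astrocytes and 0 to 4 in neurons. For *Fcer1g* the counts were 45 to 136 in microglia, median 82.5, and 0 or 1 elsewhere. No microglia library overlapped a library of another fraction in these 3 genes. Against the floor, *Trem2* was at least 108-fold higher in microglia than in astrocytes and at least 42.1-fold higher than in neurons. *Fcer1g* was at least 29.4-fold and at least 11.5-fold higher, in the same order. *Tyrobp* was at least 76.5-fold higher than in astrocytes and at least 29.95-fold higher than in neurons, where a single library exceeded 3 reads.

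The activating immunoglobulin receptors followed the same pattern. *Fcgr3* had 74 to 182 reads in microglia, median 144, and no more than 2 in any library of the other fractions, at least 49.2-fold higher than astrocytes and 19.3-fold higher than neurons. *Fcgr1* had 20 to 61 reads in microglia, median 42, a single read in all 6 astrocyte libraries together and none in neurons. Its bounds were at least 14.8-fold and 5.79-fold. Among the intracellular enzymes, *Syk* had 31 to 48 reads in microglia, median 38, and *Plcg2* 15 to 34, median 28.5, with no more than 3 reads in any other library. The resulting bounds were at least 13.6-fold against astrocytes and 5.32-fold against neurons for *Syk*, and 9.35-fold and 3.66-fold for *Plcg2*, set by the shallower neuronal libraries.

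The inhibitory genes were not alike. *Inpp5d* had 82 to 130 reads in microglia, median 95, against 1 to 7 in astrocytes and 0 to 4 in neurons, so that it was at least 35.4-fold higher in microglia than in astrocytes and 13.2 times its mean in neurons. *Cd33* had 48 to 85 reads, median 60, against 0 to 4 in both other fractions, at least 22.2-fold and 8.69-fold higher, in the same order. *Fcgr2b* had 18 to 64 reads in microglia, median 47, but also 3 to 27 in astrocytes, median 13, and 4 to 19 in neurons, median 8. Its mean of 4.26 CPM in astrocytes was 26.1% of the microglial mean of 16.4 CPM, and its 8.13 CPM in neurons was 49.7%. With the floor as the limit where a level lay below it, the other 9 genes kept at most 10.7% of their microglial level in astrocytes and 27.3% in neurons, both set by *Plcg2*. The microglia markers *Aif1*, *C1qa*, *P2ry12* and *Tmem119* had means of at most 0.133 CPM in astrocytes and 0.27 CPM in neurons, below the floor, against 23.1 to 359.6 CPM in microglia. The other 3 were read there as well: *Csf1r* at 2.401 CPM in astrocytes and 1.502 CPM in neurons, *Cx3cr1* at 3.15 and 6.05 CPM, and *Sall1* at 4.79 and 4.74 CPM, which for *Sall1* is 19.0% and 18.8% of its microglial mean. In the neuronal libraries 5 markers of T and NK cells summed to 21.9 to 32.4 CPM, against 0.765 to 3.57 CPM in the other fractions, and the 7 of monocytes and granulocytes to 9.22 to 24.6 CPM, of which *Ly6c2* had a mean of 13.9 CPM and *S100a8* and *S100a9* had no read. The 7 border macrophage markers summed to 7.98 to 19.4 CPM there, against 2.56 to 11.0 CPM in astrocytes, with *Mrc1* and *Pf4* at 0 reads. The 4 markers of B cells, which are known for high *Fcgr2b*, summed to 1.28 to 5.40 CPM, against 1.02 to 2.82 CPM in astrocytes. The neuron markers *Snap25* and *Rbfox3* had means of 3.23 and 3.32 CPM there, against 9.89 and 6.65 CPM in astrocytes, while the neuron marker *Tubb3* had 83.8 and 11.5 CPM. The part of such cells in the *Fcgr2b* level of the neuronal fraction was not tested. *Fcgr3*, the nearest relative of *Fcgr2b* in sequence, had 0 to 2 reads in the libraries where *Fcgr2b* had up to 27.

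**Figure D1:**
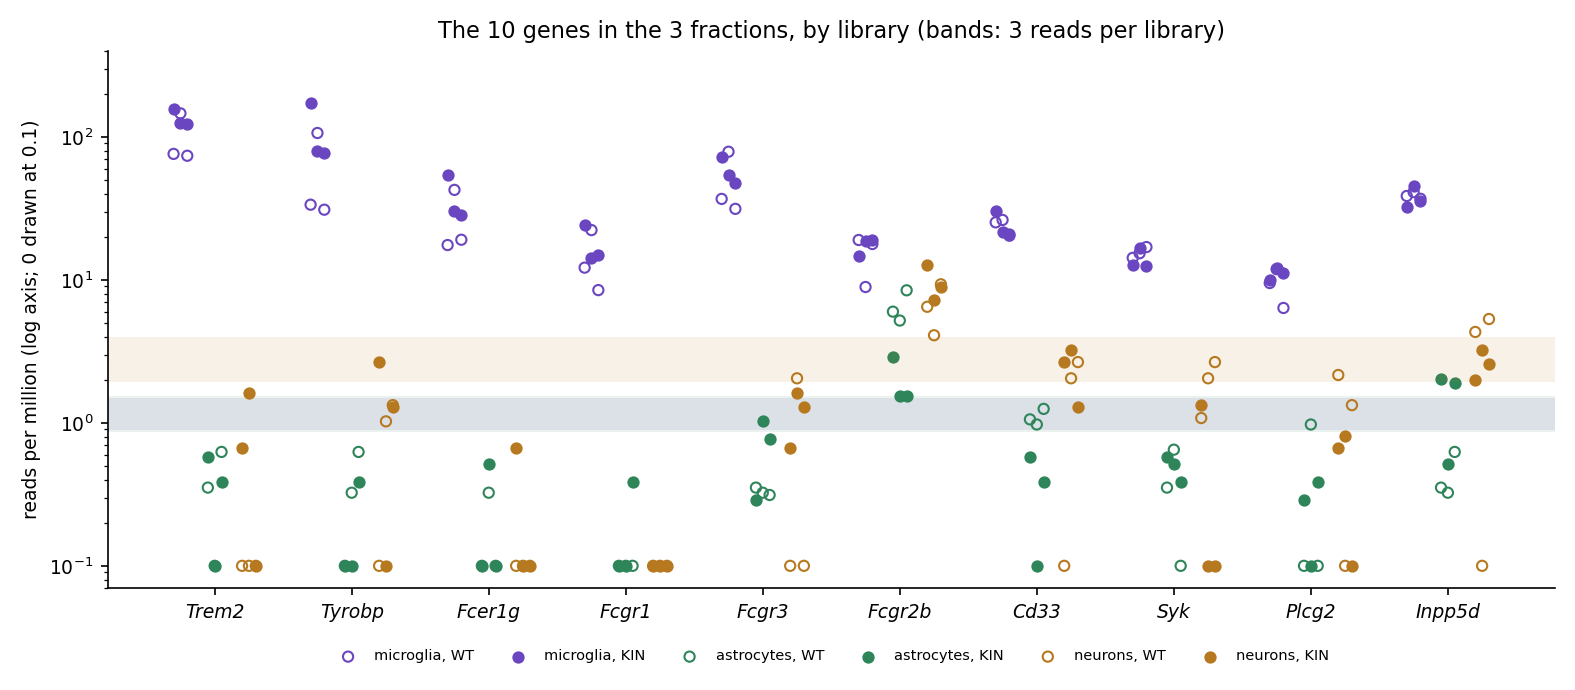
CPM of each of the 10 genes in the 18 libraries, grouped by fraction on a log axis, each point being a library and the shaded bands the level of 3 reads. *Fcgr2b* is the gene whose astrocyte and neuron libraries, up to 8.45 and 12.6 CPM, come closest to its microglia libraries. The lowest microglia library had 8.91 CPM, so that neuron and microglia libraries overlapped.

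By edgeR's quasi-likelihood test over all 18 libraries, a gene was called when its Benjamini-Hochberg adjusted *p* was at most 0.05 and its log2 fold change at least 1 in either direction. All 10 genes were called higher in microglia than in astrocytes, where 14.9% of the genes tested were, and higher than in neurons, where 17.2% were. All but *Fcgr2b* and *Inpp5d* entered these fits only through their microglial reads, so the counts describe the fractions and are no further support. The smallest differences were those of *Fcgr2b*, at 2.14 on the log2 scale against astrocytes (SE 0.24, edgeR adjusted *p* = 2.33e-13) and 1.06 against neurons (SE 0.26, edgeR adjusted *p* = 0.000548). The neuronal difference of *Fcgr2b* was no longer called in KIN libraries alone, without KIN replicate 2 or with genotype and replicate number as a block. The study took the 3 fractions of a mouse from a single brain, which the fit without the block does not use. The block takes libraries of the same genotype and number as the same mouse, which the labels do not state. In bulk libraries such as these, fewer cells of a type and less RNA per cell cannot be told apart.

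The deposited table also gives reads by transcript. Of the *Fcgr2b* reads, the transcript ENSMUST00000027966 (Fcgr2b-201) held 214 of 268 in microglia, 75 of 77 in astrocytes and 57 of 59 in neurons. A short transcript of *Fcgr3*, ENSMUST00000164179, held 29 of 827 reads in microglia but 8 of 8 in astrocytes and 6 of 7 in neurons. For *Inpp5d*, ENSMUST00000164592 held 97 of 612 reads in microglia and 14 of 17 in astrocytes. Fcgr2b-201 has no stretch of 25 bases that the other 6 *Fcgr2b* transcripts of the count table lack (GENCODE M39 sequences), and reads were aligned to transcript sequences and counted by HTSeq in union mode. Which of several equally matching transcripts then took a read is not given in the sources used here, so these counts do not show which transcript was expressed.

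Whether the expanded *Atxn2* allele changed this machinery in microglia was asked next. In KIN against WT microglia none of the 10 genes was called by edgeR, where 0.739% of the 10831 genes tested were called higher and 0.785% lower. DESeq2 called none either, and only *Tyrobp* passed 0.05 before the edgeR values were adjusted. The median log2 fold change of the 10 genes was 0.27, against -0.0037 over all genes tested. Markers of other cell types are given for the same libraries, and of those tested only *Snap25*, *Nefl* and *Cldn5* were called. The 7 markers of monocytes and granulocytes summed to 60.2 to 74.7 CPM in WT and 27.8 to 105 CPM in KIN, the 7 of border macrophages to 11.9 to 19.1 and 18.6 to 25.05 CPM, and the 4 of oligodendrocytes to 17.8 to 21.1 and 7.93 to 10.7 CPM. The 5 neuron markers summed to 8.91 to 32.6 CPM in WT and 3.58 to 5.22 CPM in KIN. *Snap25* and *Nefl* of that list were called lower, at -2.23 and -3.45 (edgeR adjusted *p* = 0.0172 and 0.0278). The 4 endothelial and pericyte markers summed to 31.8 to 48.0 CPM in WT and 43.5 to 46.4 CPM in KIN, and of the 2 tested *Cldn5* was called lower at -2.12 (edgeR adjusted *p* = 0.0135) and *Pecam1* was at 0.44 (0.482). The part of these cells in the values of the 10 genes was not tested.

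In no gene of the 10 did the KIN libraries lie wholly above the WT libraries, as 8.49% of all genes did, or wholly below, as 7.53% did.

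Among receptor and adaptors, *Tyrobp* had the largest difference. Its reads were 113, 215 and 73 in WT microglia replicates 1, 2 and 3, that is 33.5, 106 and 30.9 CPM. In KIN microglia they were 433, 222 and 220, or 172, 79.5 and 76.5 CPM. KIN replicate 1 was the highest library and WT replicate 2 lay above the other KIN libraries, so the groups overlapped. The means were 57.0 ± 42.8 CPM in WT and 109 ± 54.1 CPM in KIN (SD, n = 3 each), a log2 fold change of 0.96 (SE 0.36, edgeR adjusted *p* = 0.223).

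*Trem2* had 256, 295 and 174 reads in WT microglia, or 75.98, 146 and 73.7 CPM, and 394, 349 and 356 reads in KIN microglia, or 156, 125 and 124 CPM. Again WT replicate 2 lay among the KIN libraries and the other WT libraries below them. The log2 fold change was 0.46 (SE 0.26, edgeR adjusted *p* = 0.519), from 98.6 ± 41.1 to 135 ± 18.3 CPM. The gamma chain *Fcer1g* had 17.5, 42.6 and 19.1 CPM in WT and 53.9, 30.1 and 28.2 CPM in KIN, from 45 to 136 reads per library. WT replicate 2 was second only to KIN replicate 1, and the log2 fold change was 0.53 (SE 0.31, edgeR adjusted *p* = 0.541).

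The activating Fc receptors had smaller estimates. *Fcgr1* was at 12.2, 22.3 and 8.48 CPM in WT and 24.2, 14.3 and 15.0 CPM in KIN, a log2 fold change of 0.34 (SE 0.30, edgeR adjusted *p* = 0.768). *Fcgr3* was at 36.8, 78.7 and 31.4 CPM in WT and 72.1, 54.1 and 47.7 CPM in KIN, a log2 fold change of 0.26 (SE 0.28, edgeR adjusted *p* = 0.835). In *Fcgr3* WT replicate 2 was the highest of the 6 libraries and the other WT libraries were the lowest.

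For the enzymes that act downstream of the receptors the estimates were of both signs. *Syk* was at 14.2, 15.3 and 17.0 CPM in WT and 12.7, 16.8 and 12.5 CPM in KIN, a log2 fold change of -0.14 (SE 0.25, edgeR adjusted *p* = 0.930). *Plcg2* was at 9.50, 11.9 and 6.36 CPM against 9.91, 12.2 and 11.1 CPM, a difference of 0.27 on the log2 scale (SE 0.28, edgeR adjusted *p* = 0.811). Both had at most 48 reads in a library, which limits what these libraries can show. *Inpp5d* was at 38.6, 41.1 and 36.9 CPM in WT and 32.5, 45.5 and 35.8 CPM in KIN, with a log2 fold change of -0.03 (SE 0.23, edgeR adjusted *p* = 0.990) and the WT libraries inside the KIN range.

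Of the inhibitory receptors, *Cd33* was at 25.2, 26.2 and 20.3 CPM in WT and 30.5, 21.5 and 20.9 CPM in KIN, a log2 fold change of 0.02 (SE 0.24, edgeR adjusted *p* = 0.993). *Fcgr2b* was at 19.0, 8.91 and 17.8 CPM in WT and 14.7, 18.6 and 19.1 CPM in KIN, a log2 fold change of 0.17 (SE 0.27, edgeR adjusted *p* = 0.909). WT replicate 2, the highest library for *Fcgr3*, was the lowest for *Fcgr2b*.

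**Figure D2:**
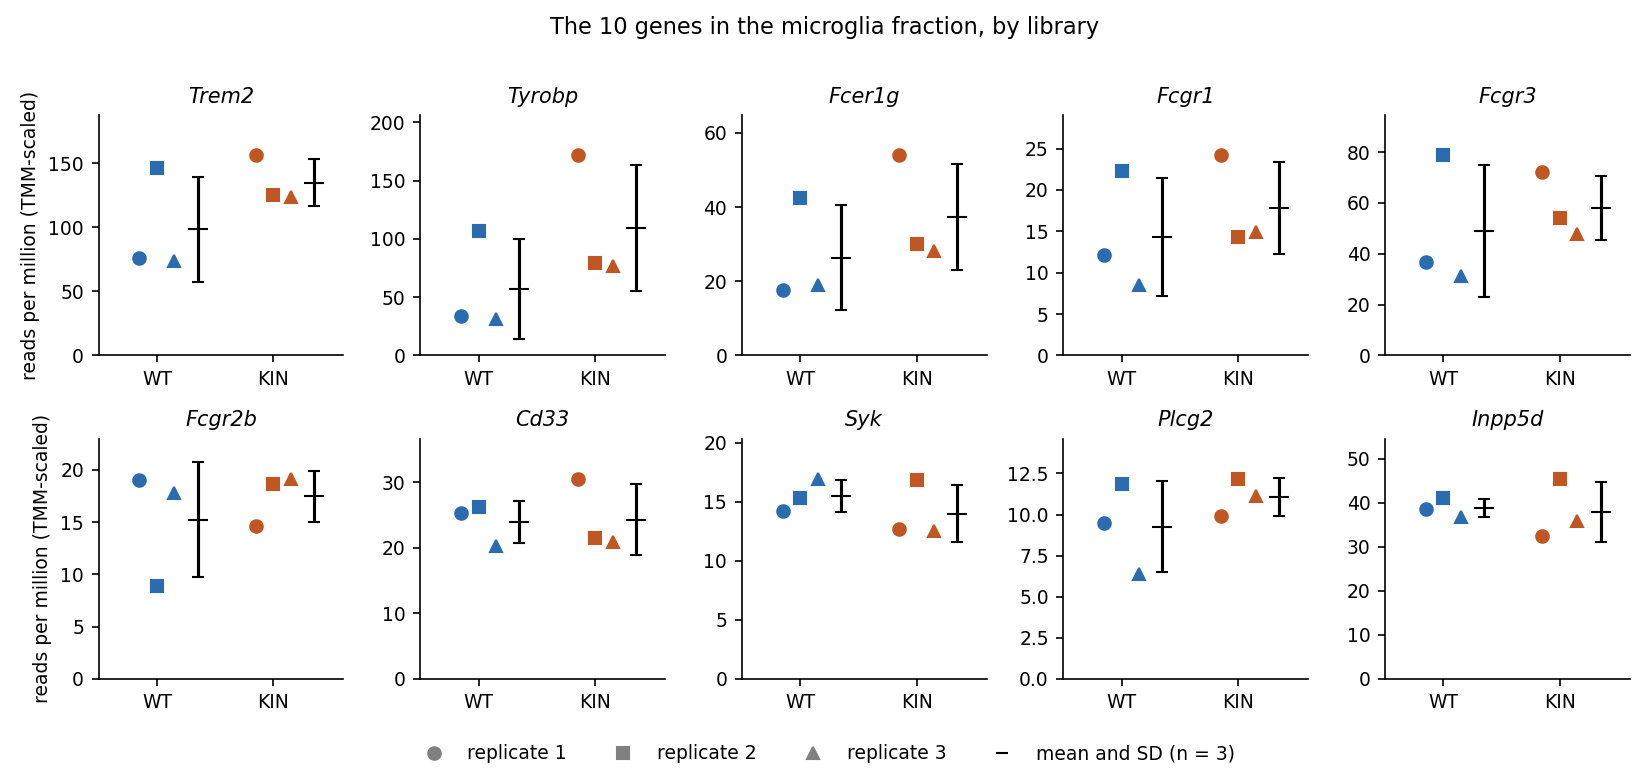
CPM of the 10 genes in the 6 microglia libraries, WT beside KIN, with each point a library and the bars giving mean and SD of 3 libraries. WT replicate 2 lies with or above the KIN libraries for *Trem2*, *Tyrobp*, *Fcer1g* and *Fcgr3* and is the lowest library for *Fcgr2b*.

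WT replicate 2 decided what was called. Without it, *Tyrobp* was called higher in KIN microglia (log2 fold change 1.74, SE 0.27, edgeR adjusted *p* = 0.000137), as was *Fcer1g* (1.02, SE 0.26, edgeR adjusted *p* = 0.0166). That is 2 of 10 genes, where 2.12% of the 10676 genes tested were called higher and 2.12% lower. *Trem2* (0.84, SE 0.18, edgeR adjusted *p* = 0.00508) and *Fcgr3* (0.75, SE 0.21, edgeR adjusted *p* = 0.0342) passed the adjusted *p* but not the fold threshold. *Fcgr1* stood at 0.74 (edgeR adjusted *p* = 0.140). The 5 remaining genes, *Plcg2*, *Cd33*, *Inpp5d*, *Syk* and *Fcgr2b*, lay between -0.15 and 0.44. Leaving out any other single microglia library gave no call among the 10 genes.

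The summed microglia markers differed in the same libraries. Without WT replicate 2 their sum did not overlap between WT and KIN. *C1qa*, the marker with the most reads, was at 260 and 266 CPM in WT against 421 to 453 CPM in KIN. None of the 7 was called then, with *C1qa* at 0.72 (SE 0.17, edgeR adjusted *p* = 0.00948), *Csf1r* at 0.48 (0.135) and the other 5 between -0.41 and 0.19. With library sizes set to the reads of these markers and without WT replicate 2, which shifted the median of all genes to -0.44, *Tyrobp* was called at 1.30 (edgeR adjusted *p* = 0.00103) and *Fcer1g* was not, at 0.58 (edgeR adjusted *p* = 0.129). *Trem2* then had 0.41 and *Fcgr3* 0.31 (edgeR adjusted *p* = 0.144 and 0.334). This scaling was chosen after the data had been seen, and *C1qa*, with the most reads of the 7 markers, weighs most in it.

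A second library also bore on these values. KIN replicate 1 was the highest microglia library for *Trem2*, *Tyrobp*, *Fcer1g*, *Fcgr1* and *Cd33*, and WT replicate 3 the lowest for *Trem2*, *Tyrobp*, *Fcgr1*, *Fcgr3*, *Plcg2* and *Cd33*. Both held at once for 4 of the 10 genes and for 5.04% of all genes tested. Without KIN replicate 1 the log2 fold change of *Tyrobp* was 0.46 and that of *Fcer1g* 0.16.

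Differences between the genotypes also moved with transcript length over all genes, and *Tyrobp* and *Fcer1g*, with the 2 largest estimates, are the 2 shortest of the 10. The mean transcript length, weighted by microglial reads, was 594 bases for *Tyrobp*, 967 for *Fcer1g*, 1405 for *Fcgr3* and 2340 for *Trem2*. It was 2577 for *Fcgr1*, 3348 for *Fcgr2b* and 4143 to 5250 for *Inpp5d*, *Plcg2*, *Syk* and *Cd33*. The *Trem2* value averages transcripts of 1088, 1143 and 4784 bases, which held 590, 603 and 612 microglial reads. Its length class thus depends on how reads were assigned to transcripts. Over all genes with a mean of at least 20 reads, the median KIN to WT log2 fold change in microglia was 0.51 for the 95 genes under 700 bases. It was 0.20 from 700 to 1500 bases, 0.08 from 1500 to 2500 and between -0.02 and 0.01 above that. In the shortest class WT replicate 2 deviated by 0.15 from the gene means on the log2 scale, WT replicates 1 and 3 by -0.43 and -0.46, and the KIN libraries by 0.17 to 0.34.

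With each library centred within its length classes, the log2 fold changes of all 6 libraries were 0.56 for *Tyrobp* (SE 0.28, edgeR adjusted *p* = 0.435), 0.39 for *Trem2*, 0.24 for *Fcer1g* and 0.04 for *Fcgr3*. With the same centring and without WT replicate 2, *Tyrobp* was called at 1.02 (SE 0.25, edgeR adjusted *p* = 0.0146) and *Fcer1g* was not, at 0.52 (edgeR adjusted *p* = 0.265). *Trem2* then had 0.67 (SE 0.18, edgeR adjusted *p* = 0.0315) and *Fcgr3* 0.38. The share of the length trend in these values was not tested beyond this centring, which was chosen after the data had been seen.

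**Figure D3:**
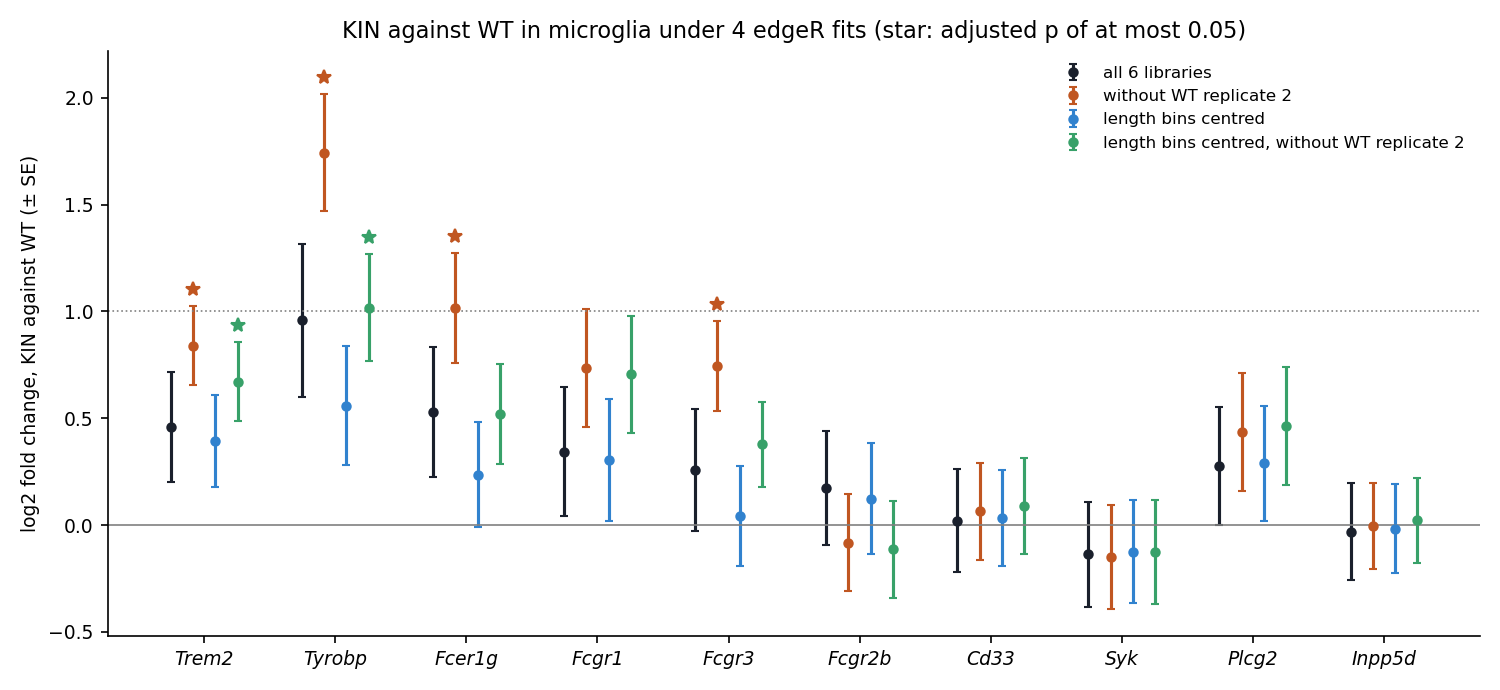
KIN to WT log2 fold change in microglia, with bars of 1 SE, for the 10 genes under 4 fits, namely all 6 libraries, without WT replicate 2, and each of these with length classes centred. *Tyrobp* ranges from 0.56 to 1.74 over the fits, while *Syk*, *Inpp5d* and *Cd33* stay near 0.

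**Figure D4:**
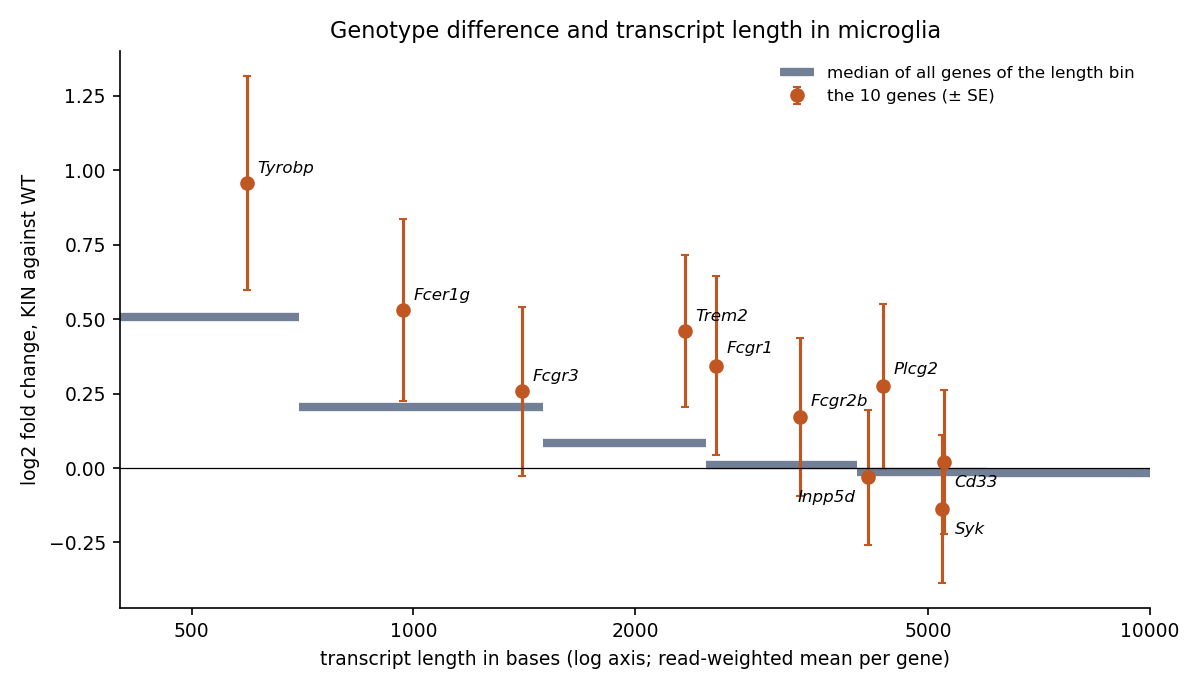
Median KIN to WT log2 fold change of all genes in each class of transcript length in bases, in the microglia libraries (grey bars, log length axis), with the 10 genes as points at their own length and fold change and bars of 1 SE. The median of all genes is 0.51 in the shortest class and -0.02 in the longest.

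Proportions within one library do not depend on scaling. The length trend given above can still move them, and its part in the values below was not tested. *Fcgr2b* made up 27.1%, 7.97% and 30.7% of the reads of the 4 immunoglobulin G receptors *Fcgr1*, *Fcgr2b*, *Fcgr3* and *Fcgr4* in WT microglia, with exact 95% binomial intervals of 21.6 to 33.3, 4.79 to 12.3 and 23.1 to 39.1. In KIN microglia the shares were 12.9%, 20.9% and 22.8%, with intervals of 9.21 to 17.3, 16.0 to 26.5 and 17.7 to 28.7. WT replicate 2 fell outside the intervals of the other WT libraries, and the means were 21.9% ± 12.2 and 18.9% ± 5.29 (SD, n = 3 each). The other 2 WT libraries lay above all KIN libraries. *Trem2* reads per 100 *Tyrobp* reads were 226.5, 137.2 and 238.4 in WT and 91.0, 157.2 and 161.8 in KIN, again with only WT replicate 2 inside the KIN range. *Fcer1g* reads per 100 *Tyrobp* reads were 52.2, 40.0 and 61.6 in WT and 31.4, 37.8 and 36.8 in KIN. In this last ratio all KIN libraries lay below all WT libraries, and 3 libraries against 3 cannot give an exact permutation *p* below 0.10.

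At the level of single transcripts, 0 of the transcripts of these genes were called in KIN against WT microglia by edgeR, where 0.503% of the 14126 transcripts tested were called higher and 0.418% lower. The *Tyrobp* transcript with the largest difference, ENSMUST00000032800 (Tyrobp-201), had a log2 fold change of 1.14 (edgeR adjusted *p* = 0.102). DESeq2 called none, and 3 transcripts, all of *Tyrobp*, passed 0.05 before adjustment. Without WT replicate 2, 4 transcripts were called, all higher in KIN, namely ENSMUST00000032800, ENSMUST00000207982 and ENSMUST00000208125 of *Tyrobp* and ENSMUST00000113237 of *Trem2*. In that fit 2.31% of the 13710 transcripts tested were called higher and 1.32% lower. Of the 4 listed *Trem2* transcripts, 3 held 590, 603 and 612 reads in microglia and the last 19. The 3 listed *Tyrobp* transcripts held 438, 456 and 382.

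In astrocytes the question bore mostly on *Fcgr2b*, since only this gene and *Inpp5d* had enough reads to be tested. *Fcgr2b* was lower in KIN astrocytes. It had 17, 16 and 27 reads in WT replicates 1, 2 and 3, or 5.99, 5.19 and 8.45 CPM, and 10, 3 and 4 reads in KIN, or 2.88, 1.53 and 1.53 CPM. All KIN libraries lay below all WT libraries, as in 14.1% of the genes tested in astrocytes, while 13.8% lay wholly above. The mean fell from 6.54 ± 1.70 to 1.98 ± 0.78 CPM (SD, n = 3 each), a log2 fold change of -1.65 (SE 0.39, edgeR adjusted *p* = 0.00288). DESeq2 gave -1.70 (adjusted *p* = 0.0380). This is 1 of 2 genes tested, in a fraction where 6.42% of genes were called lower and 2.43% higher. The call was kept when any single astrocyte library was left out, with log2 fold changes from -2.08 to -1.42 and edgeR adjusted *p* from 0.000303 to 0.0487, and it was -1.70 with length classes centred. *Inpp5d* had 1, 1 and 2 reads in WT and 7, 1 and 5 in KIN astrocytes, a log2 fold change of 1.74 (SE 0.90, edgeR adjusted *p* = 0.223). It entered the fit only through its KIN reads, and *Fcgr2b* only through its WT reads, so the count of calls is no further support. The other 8 genes had no more than 4 reads in any astrocyte library.

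Markers of several cell types are given beside *Fcgr2b* for the astrocyte libraries. None was called among those of microglia or of endothelial cells and pericytes, and none of the B cell markers was tested. The 7 microglia markers summed to 10.9 to 15.6 CPM in WT and 6.04 to 10.7 CPM in KIN astrocytes. The list for border macrophages, 7 genes, summed to 5.19 to 11.0 CPM and 2.56 to 5.76 CPM, and of its 2 genes tested *Ms4a7* was called lower at -1.58 (edgeR adjusted *p* = 0.0165) and *F13a1* was at 0.15 (0.919). The 7 markers of monocytes and granulocytes summed to 2.60 to 3.17 CPM in WT and 0 to 1.15 CPM in KIN, and *Ccr2* was called lower at -2.58 (edgeR adjusted *p* = 0.0301). For B cells the 4 markers summed to 1.56 to 2.82 CPM and 1.02 to 1.15 CPM. Endothelial and pericyte markers, 4 genes, were at 37.0 to 42.2 CPM in WT and 34.5 to 62.9 CPM in KIN. The astrocyte markers, 5 genes, summed to 204 to 297 CPM and 155 to 161 CPM, with *Fgfr3* called lower at -1.17 (edgeR adjusted *p* = 0.000133) and *Gfap* at 0.80 (0.0370). Of 5 neuron markers 4 were called lower in KIN astrocytes, while *Tubb3* was at 0.92 (edgeR adjusted *p* = 0.0219). The 4 oligodendrocyte markers were at 0.05 to 1.27, with *Mog* called higher (edgeR adjusted *p* = 0.000108). The part of these cells in the *Fcgr2b* difference was not tested.

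In neurons *Fcgr2b* was the only gene tested and no call was made, in a fraction where 0% of the 6765 genes tested were called higher and 0.0148% lower. Its reads were 6, 4 and 7 in WT, or 6.48, 4.10 and 9.31 CPM, and 19, 9 and 14 in KIN, or 12.6, 7.28 and 8.97 CPM. The groups overlapped, with a log2 fold change of 0.37 (SE 0.48, edgeR adjusted *p* = 0.974). Its unadjusted *p* was above 0.05, and DESeq2 made no call.

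**Figure D5:**
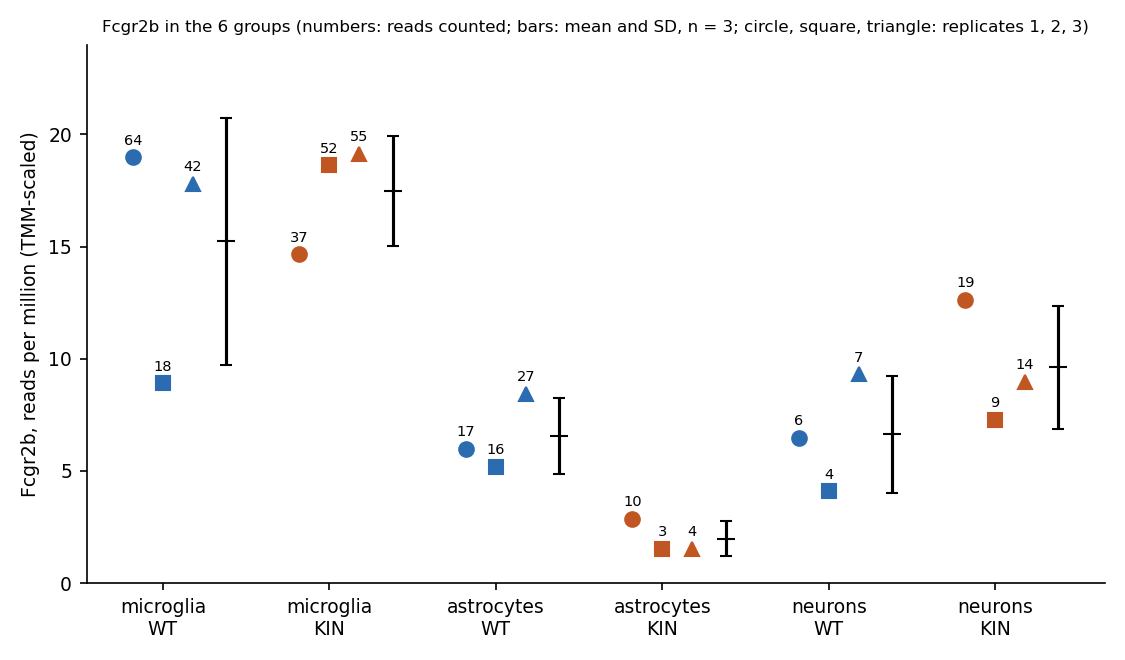
CPM of *Fcgr2b* in all 18 libraries by fraction and genotype, each point a library, with mean and SD of 3 libraries. KIN astrocytes, at 1.53 to 2.88 CPM, lie below all WT astrocytes, at 5.19 to 8.45 CPM, while the genotypes overlap in microglia and neurons.

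Whether the genotype difference itself varied between microglia and astrocytes was tested as an interaction over the 12 glial libraries. For *Fcgr2b* the signed KIN to WT log2 fold change was 0.17 in microglia and -1.65 in astrocytes, and the first exceeded the second by 1.80 in the interaction fit (SE 0.48, edgeR adjusted *p* = 0.0429). It was the only one of the 10 genes called, where 0.776% of the 13277 genes tested were called in that direction. The call did not hold with DESeq2 (1.85, adjusted *p* = 0.0517) or when any 1 of 7 libraries was left out, namely astrocyte WT replicates 1 and 3, astrocyte KIN replicates 2 and 3, microglia WT replicate 2 and microglia KIN replicates 2 and 3. The estimate then lay between 1.55 and 1.87, with edgeR adjusted *p* from 0.0659 to 0.179. For *Inpp5d* the difference was -1.79 (edgeR adjusted *p* = 0.253).

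Other genes of the pathway were read from lists by role. In microglia 3 of 74 list genes tested, 4.05%, were called higher and none lower, beside 0.739% and 0.785% of all genes tested. The lists were chosen with earlier results of these data known, so this share does not test the pathway. Of 6 ligands and processing factors of TREM2, 5 were tested in microglia and 1 was called, *Apoe*, a ligand of TREM2. *Apoe* was at 123, 257 and 117 CPM in WT and 1723, 1375 and 1137 CPM in KIN, a log2 fold change of 3.09 (edgeR adjusted *p* = 5.21e-07) with no overlap. Another list held 14 genes, mainly of other receptors that signal through ITAM adaptors or a related motif. Of these 7 were tested and 1 was called, *Clec7a*, the beta-glucan receptor Dectin-1, which engages SYK by a motif of its own. It had 14, 9 and 10 reads in WT and 77, 74 and 91 in KIN, a log2 fold change of 2.78 (SE 0.28, edgeR adjusted *p* = 7.02e-07). *Apoe* and *Clec7a* stayed called without each single library, with length classes centred, with DESeq2 and in 3 other settings, from 2.87 to 3.54 and from 2.68 to 2.86.

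Of 22 inhibitory receptors and attenuators, 20 were tested in microglia and 1 was called, *Cd72*, a lectin with an ITIM. It entered the fit only through its KIN reads. It had 8, 4 and 2 reads in WT and 15, 24 and 24 in KIN, a log2 fold change of 2.07 (SE 0.40, edgeR adjusted *p* = 0.00694), and was not called without WT replicate 3, KIN replicate 2 or KIN replicate 3 (edgeR adjusted *p* from 0.0566 to 0.0705), and DESeq2 gave it no adjusted *p*. None of 5 tested of 8 other Fc receptors and immunoglobulin binders was called, nor any of 10 kinases and phosphatases at the receptor, nor any of 28 tested of 30 signalling genes after SYK. The 2 largest log2 fold changes were 1.19 for the kinase *Fgr* (edgeR adjusted *p* = 0.417) and 0.76 for the phosphatase *Ptprc* (0.172) at the receptor. After SYK they were 1.11 for the kinase *Tec* (edgeR adjusted *p* = 0.468) and 0.99 for the adaptor *Card9* (0.258). The other Fc receptors were led by *Fcgr4*, an activating immunoglobulin G receptor with 1 to 8 reads per library, at 0.66 (edgeR adjusted *p* = 0.765) and by *Fcer2a*, the low-affinity immunoglobulin E receptor, at 0.58 (0.869). The second largest values of the other 3 lists were -0.40 for *Ms4a6d*, 0.66 for *Fcgr4*, which is in both receptor lists, and 1.59 for the inhibitory lectin *Siglecf*, with edgeR adjusted *p* of 0.840, 0.765 and 0.333. The medians of the 6 lists lay between 0.07 and 0.33, against -0.0037 over all genes tested.

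In astrocytes 3 of the 46 list genes tested were called, all lower in KIN, which is 6.52% beside the 6.42% of all genes tested there. *Ms4a6d*, of the group that bears on soluble TREM2, had 18, 13 and 20 reads in WT and 6, 5 and 2 in KIN (log2 fold change -1.78, edgeR adjusted *p* = 0.00363), and was not called without KIN replicate 3 (-1.45, edgeR adjusted *p* = 0.0521) or by DESeq2, which gave it no adjusted *p*. The SYK substrate *Lcp2* had 9, 2 and 11 reads against 2, 0 and 1 (-2.59, edgeR adjusted *p* = 0.0299). The collagen receptor *Lair1*, which carries ITIMs, had 5, 8 and 7 reads against 0, 1 and 2 (-2.43, edgeR adjusted *p* = 0.0469). Both *Lcp2* and *Lair1* entered the fit only through their WT reads, so their calls are no further support. *Lcp2* was called in 5 of 8 and *Lair1* in 3 of 10 alternative settings that gave an adjusted *p*. *Lcp2* was not tested without WT replicate 1 or without WT replicate 3, and DESeq2 gave neither gene an adjusted *p*. The kinase *Src* (-0.93, edgeR adjusted *p* = 0.0173), the inhibitory receptor *Sirpa* (-0.98, 0.00496) and the kinase *Mapk3* (0.88, 0.00962) passed the adjusted *p* but not the fold threshold. The lists held 5, 1, 1, 5, 22 and 12 tested genes here, in the order ligands, ITAM receptors, Fc receptors, kinases and phosphatases, signalling after SYK and inhibitors. The next largest values were 0.89 for the protease *Adam17*, 0.87 for the kinase *Csk*, -1.36 for the exchange factor *Vav3* and -1.04 for the inhibitory lectin *Cd22*, with edgeR adjusted *p* of 0.106, 0.0647, 0.402 and 0.144. In the 2 lists with a single tested gene, *Siglech* was at -0.69 and *Fcgrt* at 0.20 (edgeR adjusted *p* = 0.311 and 0.842).

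In neurons 3, 1, 0, 6, 14 and 9 genes of the lists were tested, in the same order, and none was called by edgeR. The 2 largest values of each list were -0.73 for *Adam17* and 0.50 for *Clu*, 1.53 for *Pag1* and -0.85 for *Src*, -0.96 for *Plcg1* and 0.88 for *Grb2*, and -1.21 for *Cd22* and 0.98 for *Cbl*, with edgeR adjusted *p* from 0.871 to 0.9702. *Pag1*, *Plcg1* and *Cd22* passed 0.05 before adjustment. *Hcst*, which encodes an adaptor rather than a receptor, was the only gene of the ITAM receptor list tested and was at -0.07.

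The genes whose log2 level ran most like that of a member over the 18 libraries were found among 1789 genes, as a description, since the libraries share fractions. For *Trem2* they were *C1qa* (Pearson r = 0.995), *Fcrls* (0.995) and *C1qc* (0.993). For *Tyrobp* they were *Cd68* (0.988), *Blnk* (0.986) and *Grn* (0.980), and for *Fcer1g* *Spi1* (0.997), *P2ry6* (0.993) and *Ctss* (0.993).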

How the data were processed

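Ribosomal RNA was depleted and RNA was polyadenylated before 3′-end libraries with molecular identifiers were made and sequenced on a NextSeq. Per the labels and the study's methods, the authors removed duplicate molecules, trimmed with cutadapt 4.6, aligned to mm39 transcript sequences with Bowtie2 2.4.4 and counted with HTSeq 2.0.2 without strand. The deposited values used here are raw read counts per transcript. A further 36 per-sample columns, normalised by the authors, and the columns of the authors' own comparisons (fold changes and adjusted p-values) were not used.

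Counts were summed by gene symbol, and 137 rows without a symbol were kept under their identifiers. A gene entered a fit when 2 or more libraries of that fit had 5 or more reads of it, and was tested with edgeR 4.0.16 (TMM, glmQLFit and glmQLFTest, R 4.3.3), Benjamini-Hochberg adjusted over all genes tested. The fits were KIN against WT within each fraction, microglia against each other fraction over 18 libraries, and the interaction over 12 glial libraries. Alternatives were DESeq2 1.42.0, its size factors, other filters, all libraries in one fit, single libraries left out, a replicate block, and, added after the data had been seen, other scalings and centring within classes of transcript length (GENCODE M39, classes filled by genes with a mean of at least 20 reads). The scripts were tested on simulated data. CPM was computed with TMM over 18 libraries.

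The genes named were the 10 members, every called gene of the lists, and the 3 genes most like *Trem2*, *Tyrobp* and *Fcer1g*. For each list the 2 largest changes were also named. *Src*, *Sirpa* and *Mapk3* in astrocytes and the markers named beside *Fcgr2b* were chosen after their values were seen. The members and lists were chosen with earlier results of these data known. No 2 libraries of a group agreed within sampling noise. The labels call the libraries biological replicates, and p-values measure the spread between these libraries. Replicate numbers were not taken to pair KIN with WT, since the correlations of same-numbered deviations ran from -0.0637 to 0.054. Protein sequences were not used here. One of the listed microglia markers is not reported here and was left out of the marker sums and scaling.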

Additional observations from a re-analysis of the deposited data

Results flagged for a closer look

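One result met a rule for a difference between groups. The signed KIN to WT log2 fold change of *Fcgr2b* in microglia exceeded that in astrocytes by 1.80 in the interaction test of edgeR (SE 0.48, adjusted *p* = 0.0429). DESeq2 did not call it (1.85, adjusted *p* = 0.0517). Leaving out some single libraries also ended the call (edgeR adjusted *p* up to 0.179). *Fcgr2b* fell by 1.65 on the log2 scale in KIN astrocytes, a fit it entered only through its WT reads. All 3 KIN libraries lay below all 3 WT libraries there, as in 14.1% of the genes tested. In microglia, where the groups overlapped, the log2 fold change was 0.17. The astrocyte libraries held 3 to 27 *Fcgr2b* reads each. In the same astrocyte libraries the microglia markers summed to 10.9 to 15.6 CPM in WT and 6.04 to 10.7 CPM in KIN, and the border macrophage markers to 5.19 to 11.0 CPM and 2.56 to 5.76 CPM, and their part in the difference was not tested.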

How the results depend on the processing

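Of the counts of called genes or transcripts, 81 values under alternatives stayed within 1.5 times the count reported and 13 did not. Of the values of the 10 genes one by one, 332 kept direction and call, 20 changed sign, 8 lost a call and 4 gained one. For the 6 called genes of the pathway lists, 46 of 60 values with an adjusted *p* were called and 14 were not. *Apoe* and *Clec7a* were called in all 11 settings, *Cd72*, *Ms4a6d* and *Lair1* in 7, 9 and 3 of 10, and *Lcp2* in 5 of 8. DESeq2 gave 4 of these genes no adjusted *p*, and *Lcp2* was not tested in 2 settings. The number of the 10 genes called in KIN against WT microglia ran from 0 to 2 when single libraries were left out, the 2 being *Tyrobp* and *Fcer1g* without WT replicate 2, and was 1, *Tyrobp*, when length classes were also centred or libraries were also scaled to the 7 microglia markers. The number of transcripts called ran from 0 to 4 when single libraries were left out and was 1 with no filter on low counts. The interaction count ran from 0 to 1 when single libraries were left out and was 0 with DESeq2, where *Fcgr2b* had 1.85. Without single libraries the *Fcgr2b* interaction ran from 1.55 to 2.24.

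All sign changes were in genes not called. In microglia *Cd33* was at -0.0039 with no filter, -0.10 without WT replicate 3, -0.18 without KIN replicate 1, -0.24 scaled to the 7 microglia markers and -0.37 with that scaling and without WT replicate 2. *Fcgr2b* was at -0.084 without WT replicate 2, -0.11 when length classes were also centred, -0.13 scaled to the markers and -0.51 with that scaling and without WT replicate 2. *Fcgr3* was at -0.0025 without WT replicate 3. *Inpp5d* was at 0.061 without KIN replicate 1, 0.0070 without KIN replicate 3 and 0.022 with length classes centred and without WT replicate 2. In the interaction, with no more than 3 astrocyte reads of these genes in a library, single astrocyte libraries moved *Fcer1g* to -1.36, -0.23 and -0.04, *Plcg2* to -2.41, *Trem2* to -0.48 and -0.07 and *Fcgr1* to 0.36. Over all single libraries left out, the ranges in microglia were -0.18 to 0.12 for *Cd33*, -0.084 to 0.35 for *Fcgr2b*, -0.0025 to 0.75 for *Fcgr3* and -0.17 to 0.061 for *Inpp5d*. In the interaction they were -1.36 to 2.34 for *Fcer1g*, -2.16 to 0.36 for *Fcgr1*, -2.41 to 1.203 for *Plcg2* and -0.48 to 0.97 for *Trem2*. The cause was not tested.

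*Tyrobp* in microglia passed the adjusted *p* but not the fold threshold with no filter (0.93, edgeR adjusted *p* = 0.00996) and in the fit of all 18 libraries (0.96, edgeR adjusted *p* = 0.0385), while DESeq2 gave 0.92 (adjusted *p* = 0.611). With replicate number as a block, the calls were 0 in microglia, 1 in astrocytes, 0 in neurons, 10 and 9 for microglia against astrocytes and neurons, 1 in the interaction (*Fcgr2b* 1.81, edgeR adjusted *p* = 0.00955) and 0 for transcripts. *Tyrobp* had 1.08 in the blocked fit, where it was not called. *Syk*, *Plcg2*, *Fcgr1* and *Fcgr2b* had 15 to 64 reads per microglia library, which limits what their comparison can show.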
